A study of Rattus norvegicus with 8 samples.

Results

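The glycolysis and gluconeogenesis isoenzymes of the liver were followed through 8 genes, Slc2a2, Hk1, Hk2, Pklr, Pkm, Pck1, Fbp1 and G6pc, across mature hepatocytes (MHs) and small hepatocyte-like progenitor cells (SHPCs) of the rat. They were picked by gene name, and every non-control probe carrying one of the names was kept, with the older name Pkm2 accepted for Pkm. This gave 8 of the 27110 genes on the array, with 15 of 45598 probes and 33 spots. All 8 genes had at least 1 probe bright enough to be tested, and 14 of the 15 probes were tested.

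Glucose enters the hepatocyte through the transporter GLUT2 (Slc2a2) and is trapped in cells as glucose 6-phosphate by enzymes that include the hexokinases Hk1 and Hk2. Glycolysis ends with pyruvate kinase, which the adult hepatocyte takes from Pklr and which many dividing, fetal and non-parenchymal cells take from Pkm. Gluconeogenesis runs the other way through phosphoenolpyruvate carboxykinase (Pck1), fructose 1,6-bisphosphatase (Fbp1) and glucose 6-phosphatase (G6pc), and its genes are known for their induction by glucagon and glucocorticoids and their repression by insulin.

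RNA was taken by laser microdissection (LMD) from frozen liver sections of female F344 rats that, by the methods, had received retrorsine, an alkaloid that blocks hepatocyte division, and partial hepatectomy. Control SHPCs (n = 3) were clusters from recipients given no cells, SHPCs with BM-MCs (n = 3) were clusters from recipients given cultured bone marrow-derived mesenchymal cells of a male F344 DPPIV+ donor through the spleen, and MHs (n = 2) were cut from control livers, with harvest at day 14. The labels name the DPPIV+ strain for all samples where the methods name DPPIV- recipients, and no label ties a sample to an animal, so that a p-value here reflects sample-to-sample spread, part of which may be technical. Clusters were recognised by eye after hematoxylin staining, so captured areas can hold other liver cells, and in such bulk RNA fewer cells of a type cannot be told apart from less RNA per cell.

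The probes decide what could be read from each gene, and the 60-base probes whose letters lie in coding sequence and on which the results below turn are shown here in lower case, with positions on rn4, the build named in the array's header. The first of them carries the exon that Pkm transcripts of the M1 type hold and those of the M2 type lack, and the second lies 3′ of it in sequence common to both types.
Pkm probe 4 (chr8:63504373-63504432, plus strand): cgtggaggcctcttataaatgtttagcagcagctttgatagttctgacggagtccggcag
Pkm probe 2 (chr8:63507632-63507691, plus strand): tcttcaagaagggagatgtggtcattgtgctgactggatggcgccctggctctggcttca
Pklr probe 2 (chr2:181221375-181221434, plus strand): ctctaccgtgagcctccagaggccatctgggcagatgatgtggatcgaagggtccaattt
Pck1 probe 1 (chr3:164017597-164017656, plus strand): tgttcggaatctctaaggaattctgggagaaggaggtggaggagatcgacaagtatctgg
Fbp1 probe 2 (chr17:7817700-7817759, plus strand): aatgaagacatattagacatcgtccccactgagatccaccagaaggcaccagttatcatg
G6pc probe 2 (chr10:90402888-90402947, plus strand): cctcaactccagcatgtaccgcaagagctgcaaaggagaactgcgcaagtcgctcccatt

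Upstream sequence is shown for Pck1 and G6pc (G6pc1 in RefSeq), the pair of gluconeogenic genes best known for hormonal control, as the 250 bases before the RefSeq start site on GRCr8. Capitals mark 2 sets of letters searched on both strands, CGTCA or TGACG, the core of cAMP response elements, and GTTAAT or ATTAAC, part of the motif of hepatocyte nuclear factor HNF-1.
Pck1 (chr3:182348322-182348571, plus strand): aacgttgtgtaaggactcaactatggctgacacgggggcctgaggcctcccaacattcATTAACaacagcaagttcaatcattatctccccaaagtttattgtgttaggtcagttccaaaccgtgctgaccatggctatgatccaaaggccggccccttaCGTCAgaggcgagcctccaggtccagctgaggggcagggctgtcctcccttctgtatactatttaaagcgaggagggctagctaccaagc
G6pc1 (chr10:86807409-86807658, plus strand): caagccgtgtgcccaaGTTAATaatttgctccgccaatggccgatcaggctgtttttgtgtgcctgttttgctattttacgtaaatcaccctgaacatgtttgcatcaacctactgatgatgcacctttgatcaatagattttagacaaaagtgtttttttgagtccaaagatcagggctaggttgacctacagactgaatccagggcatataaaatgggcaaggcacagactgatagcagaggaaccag

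Counted from the base before the start site, the Pck1 window held CGTCA from -90 and ATTAAC from -192, and the G6pc1 window held GTTAAT from -234. Among 33469 RefSeq start sites, 18.2% of such windows held the first set of letters and 6.45% the second. Among the other members, 1 of 2 Hk1 start sites held TGACG, and the windows of Slc2a2, Hk2, Pklr, Pkm and Fbp1 held neither set. These matches describe letters only.

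Signals are given as log2 values, each array set at its own 75th percentile, so that 0 is the brightness of that percentile, and no level of 1 gene is compared with that of another. Summed levels of marker lists, given in multiples of the 75th percentile signal, weight each marker by the brightness of its probe. Between 57.0% and 61.5% of spots were well above background. The 8 arrays lay in 2 slide sets, set 1 with both MHs and control SHPC replicates 1 and 2, and set 2 with control SHPC replicate 3 and the 3 samples with BM-MCs. Hepatocyte marker genes (Alb, Ttr and 6 others) were bright everywhere, their summed level lying between 820 and 1083 times the 75th percentile signal. The 6 proliferation genes summed to 1.08 to 1.48 in MHs, 2.41 to 4.05 in SHPCs with BM-MCs and 4.56 to 6.87 in control SHPCs.

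No member passed the adjusted threshold of limma (Benjamini-Hochberg adjustment at 0.05 over all 23111 probes tested) in any of the 3 comparisons. In SHPCs with BM-MCs against control SHPCs 0 of 8 members were called, where 0.0275% of 14536 tested genes were, and 1 member had an unadjusted p under 0.05, where 16.2% of genes did. One of the 8, Pkm, had groups that did not overlap, being higher with BM-MCs, against 24.3% of all genes, 13.1% higher and 11.2% lower. Between MHs and control SHPCs 0 of 8 members were called against 1.22% of genes, and 3 had an unadjusted p under 0.05 against 20.3%. In that comparison 6 of 8 members had groups that did not overlap, 3 higher and 3 lower in MHs, against 42.3% of all genes, 25.4% higher and 16.8% lower. With BM-MC SHPCs set against MHs, 0 of 8 were called against 0.406% of genes, 2 had an unadjusted p under 0.05 against 13.5%, and 4 did not overlap, 3 higher and 1 lower with BM-MCs, against 32.6%, 14.7% higher and 17.9% lower. The 3 comparisons share samples in pairs, so their values are given side by side and are not independent of each other.

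**Figure D1:**
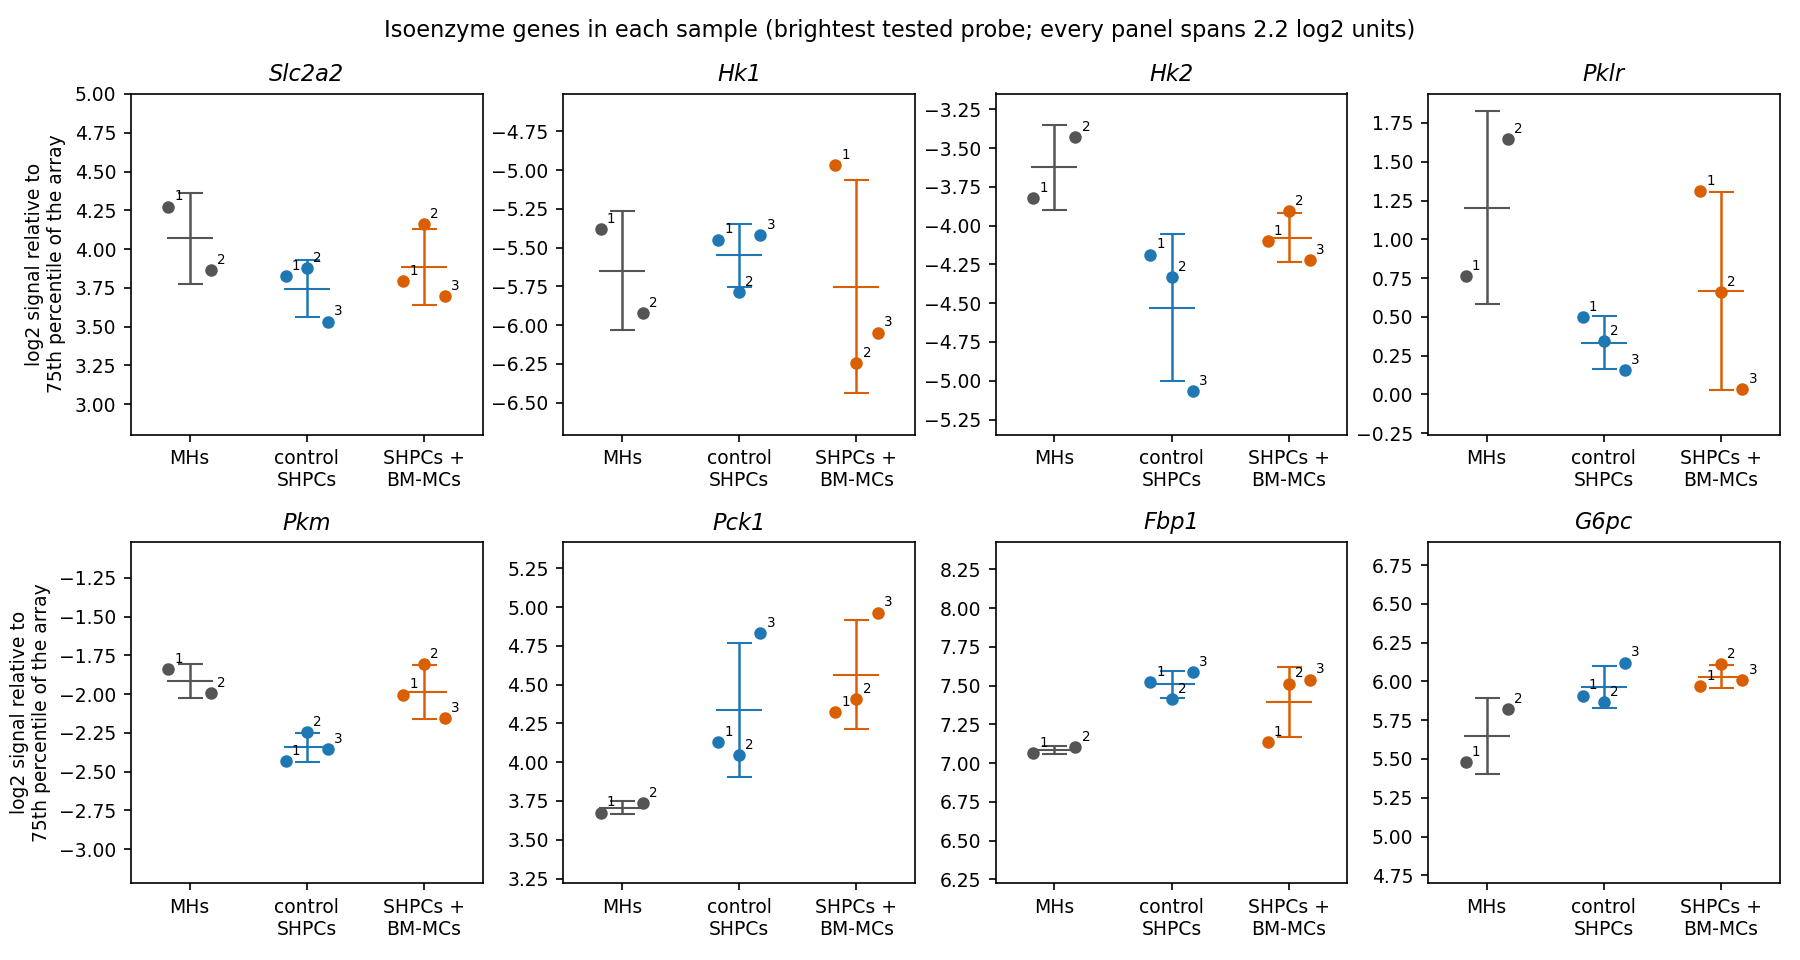
Log2 signal relative to the 75th percentile of the array (vertical axis) for the brightest tested probe of each gene, by group. Points are samples with their replicate number, the long bar is the mean and the whiskers are 1 SD; Pck1, Fbp1 and G6pc sit lower in both MH samples than in all 6 SHPC samples, and Hk2, Pklr and Pkm sit higher in both MH samples than in the 3 control SHPC samples.

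Slc2a2, the glucose transporter of the hepatocyte, was at 4.27 and 3.86 in MHs, at 3.83, 3.88 and 3.53 in control SHPCs and at 3.79, 4.16 and 3.69 in SHPCs with BM-MCs. MH replicate 1 was highest and control SHPC replicate 3 lowest, and the groups overlapped in every comparison. The differences were 0.32 between MHs and control SHPCs (95% interval -0.15 to 0.80) and 0.14 for SHPCs with BM-MCs over control SHPCs (-0.27 to 0.55), the latter turning to -0.053 when arrays were scaled to their median. Leaving out MH replicate 1 or 2 moved the former to 0.12 or 0.53. Their adjusted p from limma were 0.41 and 0.70, and within slide sets 1 and 2 they were 0.22 and 0.35.

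Hk1, the hexokinase of most tissues, gave a dim signal of -5.38 and -5.92 in MHs, of -5.45, -5.78 and -5.42 in control SHPCs and of -4.97, -6.24 and -6.05 in SHPCs with BM-MCs. It was well above background on all arrays except BM-MC replicates 2 and 3, and BM-MC replicate 1 held the highest value of all 8. The groups overlapped throughout, and the difference with BM-MCs of -0.20 (95% interval -1.03 to 0.62, adjusted p = 0.78, limma) turned to 0.082 with dim spots set at the floor of their array.

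Hk2, the hexokinase that insulin and hypoxia induce in many tissues, was read by a pair of probes that did not show the same order. On the brighter, probe 1, it was at -3.82 and -3.43 in MHs, at -4.19, -4.33 and -5.07 in control SHPCs and at -4.10, -3.91 and -4.22 in SHPCs with BM-MCs. Both MHs were above all 6 SHPC samples, and control SHPC replicate 3 was the lowest. The difference between MHs and control SHPCs was 0.90 (standard error 0.27, adjusted p = 0.16, limma), the largest among the 8 genes in that comparison, and within slide set 1 it was 0.63. With BM-MCs the difference from control SHPCs was 0.45 (standard error 0.25, adjusted p = 0.40, limma), 0.18 without control SHPC replicate 3, and 0.99 against that sample alone, the 1 control in slide set 2. The difference of -0.45 between BM-MC SHPCs and MHs turned to 0.35 with the slide set as a block.

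The dimmer Hk2 probe 2, of whose 60 bases 32 are T, was at -5.86 and -5.58 in MHs, at -5.60, -5.41 and -5.80 in control SHPCs and at -5.40, -5.06 and -4.69 in SHPCs with BM-MCs, and in control SHPC replicate 3 did not stand well above background. Here the samples with BM-MCs were the highest and MHs overlapped control SHPCs. The difference between MHs and control SHPCs was -0.12 (95% interval -0.65 to 0.41) where probe 1 gave 0.90, and SHPCs with BM-MCs differed from MHs by 0.67 where probe 1 gave -0.45. The level of Hk2 in MHs relative to both SHPC groups therefore depended on the probe.

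Pklr, the pyruvate kinase of the adult hepatocyte, was at 0.76 and 1.65 in MHs, at 0.50, 0.34 and 0.16 in control SHPCs and at 1.31, 0.66 and 0.035 in SHPCs with BM-MCs on probe 1. Both MHs were above all controls, whereas the samples with BM-MCs ran from above MH replicate 1 to below every control. The difference between MHs and control SHPCs was 0.87 (standard error 0.39, adjusted p = 0.28, limma), and that with BM-MCs was 0.34 (95% interval -0.43 to 1.1, adjusted p = 0.61). The former was 0.43 without MH replicate 2 and 1.31 without MH replicate 1. Without BM-MC replicate 1 the latter was 0.015 and without BM-MC replicate 3 it was 0.65, and within slide sets 1 and 2 these differences were 0.78 and 0.51.

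Pklr probe 2, in the coding sequence shown above, put MHs at -0.83 and -0.76, control SHPCs at -1.28, -1.26 and -1.34 and SHPCs with BM-MCs at -0.49, -0.90 and -1.21. Controls lay close together (SD 0.041, n = 3), and every sample of the other groups lay above all of them. The difference was 0.50 for MHs (standard error 0.20, adjusted p = 0.24, limma) and 0.43 for SHPCs with BM-MCs (standard error 0.19, adjusted p = 0.33, limma), with the same order of the 3 samples with BM-MCs on both probes. Red cell precursors use Pklr too, and the 5 erythroid markers, Hba1 and Hbb among them, summed to 19.0 and 38.1 times the 75th percentile in MHs, 30.8 to 103 in control SHPCs and 14.4 to 20.2 in SHPCs with BM-MCs. Of the 5, 1 was higher on average in MHs than in control SHPCs and 1 with BM-MCs. Control SHPC replicate 3 stood apart with Hba1 at 6.05, where the other controls were at 4.36 and 4.30, and it had the lowest Pklr of the controls on both probes. The part of these cells in the Pklr values was not tested.

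Pkm, the pyruvate kinase of many non-hepatocyte and dividing cells, was read by 4 probes. On probe 1, printed in 10 spots, it was at -1.84 and -1.99 in MHs, at -2.43, -2.25 and -2.35 in control SHPCs and at -2.0035, -1.81 and -2.16 in SHPCs with BM-MCs. Both MHs and all 3 samples with BM-MCs were above every control. The difference was 0.43 for MHs (standard error 0.14, adjusted p = 0.18, limma) and 0.35 for SHPCs with BM-MCs (standard error 0.13, adjusted p = 0.27), and within slide sets 1 and 2 these were 0.42 and 0.36. With arrays scaled to their median the latter was 0.16 (standard error 0.14). Pkm was the 1 member with an unadjusted p under 0.05 in that comparison, and 0 members had one with median, quantile or no scaling, with no filter on dim probes, or when BM-MC replicate 2 or control SHPC replicate 1 or 3 was left out.

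Pkm probe 2, also in 10 spots, showed far less, with -2.86 and -2.87 in MHs, -2.85, -2.90 and -2.94 in control SHPCs and -2.72, -2.74 and -2.88 in SHPCs with BM-MCs. All groups overlapped. The differences from control SHPCs were 0.036 for MHs (95% interval -0.22 to 0.30) and 0.12 for SHPCs with BM-MCs (-0.13 to 0.37). The SD among the spots of 1 array was 0.054 to 0.18 on probe 1 and 0.085 to 0.15 on probe 2.

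Pkm probe 3, a single spot, was at -2.92 and -2.97 in MHs, at -3.29, -3.28 and -3.24 in control SHPCs and at -2.95, -2.53 and -3.21 in SHPCs with BM-MCs, and followed probe 1. Probe 4, on the M1-type exon, was not well above background on any array and was not tested. The tested Pkm signal therefore came from probes in sequence that M1-type and M2-type transcripts share.

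**Figure D2:**
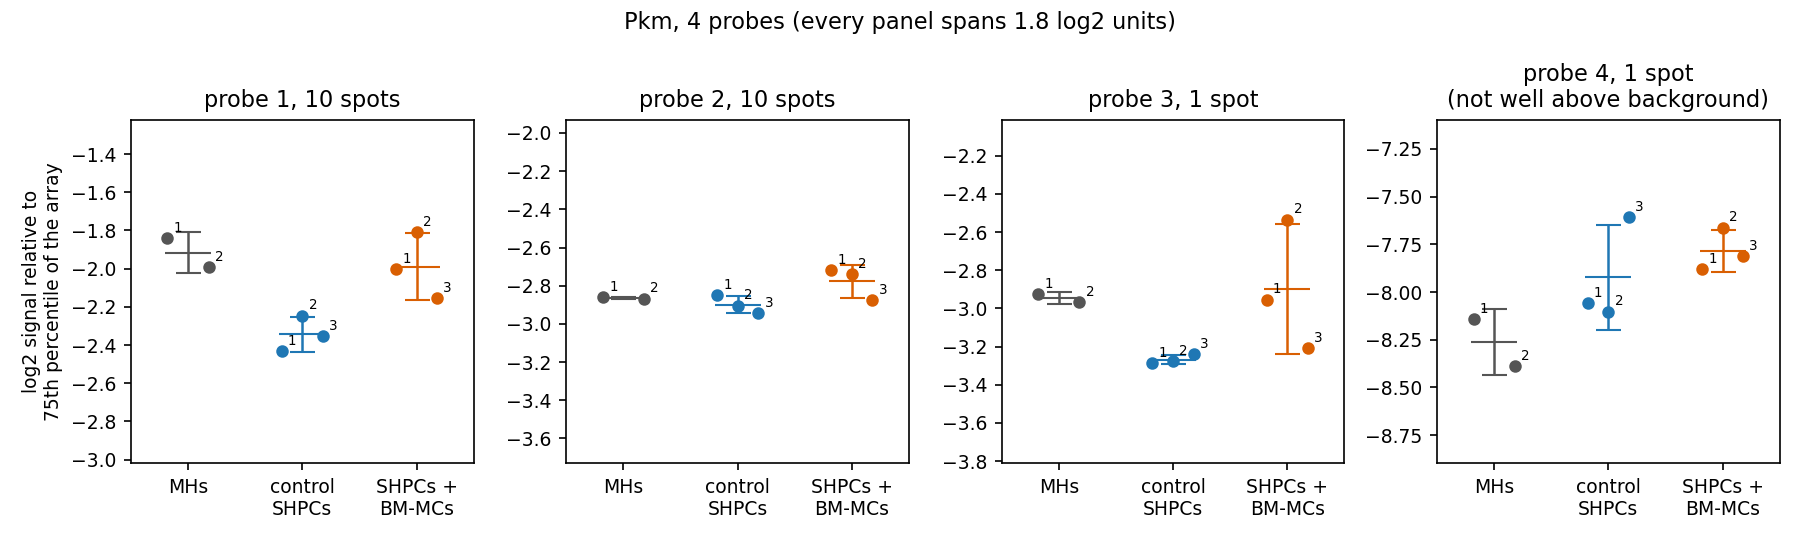
Log2 signal relative to the 75th percentile of the array (vertical axis) for the 4 Pkm probes, by group. Points are samples with their replicate number, the long bar is the mean and the whiskers are 1 SD; probes 1 and 3 hold control SHPCs below both other groups, probe 2 shows overlapping groups, and probe 4 was not well above background on any array.

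Macrophages also express Pkm, and the 8 Kupffer cell and macrophage markers, Cd68 and Cd163 among them, summed to 47.9 to 53.3 times the 75th percentile in MHs, 26.0 to 38.2 in control SHPCs and 32.8 to 46.3 in SHPCs with BM-MCs. With BM-MCs 4 of the 8 were higher and 4 lower on average than in control SHPCs, with a median difference of 0.026. Of these markers 7 were higher on average in MHs than in control SHPCs, none past the adjusted threshold of limma, and Cd68 was at 2.09 and 2.30 in MHs against 1.58, 1.53 and 0.97 in control SHPCs. Cd163 was at 0.75 and 0.72 in MHs and at 0.31, 0.33 and -0.12 in control SHPCs. In SHPCs with BM-MCs it was at 0.74, 1.07 and 0.35. Alone among the 8 macrophage markers, Cd163 was higher in both other groups than in every control. In the other markers, Cd68 included, the samples with BM-MCs overlapped the controls. Pkm was above every control in both groups on probes 1 and 3 but not on probe 2. Over all genes, 13.1% were higher with BM-MCs than in control SHPCs with no overlap, and 25.4% higher in MHs. The 3 tested granulocyte markers, S100a8 and S100a9 among them, summed to 0.36 to 0.48 with BM-MCs, to 1.13 to 1.57 in control SHPCs and to 0.39 and 1.51 in MHs. The 6 tested sinusoidal endothelial markers summed to 14.4 and 17.3 in MHs, 12.8 to 14.6 in control SHPCs and 14.8 to 16.4 with BM-MCs. Of these 6, 5 were higher on average in MHs than in control SHPCs, and 5 with BM-MCs. Stellate cell and fibroblast markers summed to 4.55 and 4.81, 4.32 to 4.61 and 3.99 to 5.89 in the same order of groups. The part of these cells in the Pkm values was not tested.

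Pck1, the enzyme that commits oxaloacetate to gluconeogenesis, was at 3.68 and 3.73 in MHs, at 4.13, 4.05 and 4.83 in control SHPCs and at 4.32, 4.41 and 4.96 in SHPCs with BM-MCs. Both MHs were below every SHPC sample, and replicate 3 was the highest of both SHPC groups. The difference between MHs and control SHPCs was -0.63 (standard error 0.28, adjusted p = 0.28, limma) and SHPCs with BM-MCs differed from MHs by 0.86 (standard error 0.28, adjusted p = 0.31, limma). SHPCs with BM-MCs differed from controls by 0.23 (95% interval -0.43 to 0.88), and by 0.028 without BM-MC replicate 3 and 0.48 without control SHPC replicate 3.

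Fbp1, which removes a phosphate from fructose 1,6-bisphosphate, was at 7.07 and 7.10 in MHs, at 7.52, 7.41 and 7.59 in control SHPCs and at 7.13, 7.51 and 7.54 in SHPCs with BM-MCs on probe 1. The MHs were lowest, with BM-MC replicate 1 next to them and apart from the other SHPC samples. The difference between MHs and control SHPCs was -0.42 (standard error 0.15, adjusted p = 0.21, limma), and that between SHPCs with BM-MCs and controls was -0.11 (95% interval -0.46 to 0.24). Probe 2 gave 4.81 and 4.86, then 5.31, 5.41 and 5.59, then 5.01, 5.49 and 5.59 for the same groups in the same order, a difference of -0.60 between MHs and control SHPCs (standard error 0.19, adjusted p = 0.17, limma).

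G6pc, which frees glucose from glucose 6-phosphate, was at 5.48 and 5.82 in MHs, at 5.91, 5.87 and 6.12 in control SHPCs and at 5.97, 6.11 and 6.01 in SHPCs with BM-MCs on probe 1. The highest MH value was just under the lowest SHPC value. Probe 2, in coding sequence, put MHs at 0.98 and 1.26, control SHPCs at 1.71, 1.55 and 2.28 and SHPCs with BM-MCs at 1.92, 1.86 and 1.92, again with no overlap between MHs and either SHPC group. The difference between MHs and control SHPCs was -0.32 on probe 1 (standard error 0.15, adjusted p = 0.30, limma) and -0.73 on probe 2 (standard error 0.22, adjusted p = 0.16, limma). Between SHPCs with and without BM-MCs it was 0.065 on probe 1 (95% interval -0.22 to 0.35), an interval narrower than a 2-fold change in either direction.

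All 5 probes of these 3 genes were thus lower in both MHs than in all 6 SHPC samples, and none passed the adjusted threshold of limma. Probes of 1 gene are not independent of each other. Over all genes 16.8% were lower in MHs than in control SHPCs with no overlap, and 14.7% higher with BM-MCs than in MHs. The share showing both was not computed. Of the 8 hepatocyte markers 1 was higher on average in MHs than in control SHPCs, with a median difference of -0.087. The direction between MHs and control SHPCs, and from MHs to SHPCs with BM-MCs, was kept by the representative probe of Pck1, Fbp1 and G6pc in all 23 alternative settings. Its size was not. Within slide set 1 the differences between MHs and control SHPCs were -0.38 for Pck1, -0.38 for Fbp1 and -0.24 for G6pc. Over the samples left out in turn these differences ran from -0.78 to -0.38 for Pck1, from -0.47 to -0.38 for Fbp1 and from -0.49 to -0.14 for G6pc, the smallest without control SHPC replicate 3 for Pck1 and Fbp1 and without MH replicate 1 for G6pc. No slide set held both MHs and SHPCs with BM-MCs, and with the set as a block the differences between them fell to 0.11, 0.19 and 0.15. Within set 2 the 3 samples with BM-MCs differed from their 1 control by -0.27 for Pck1, -0.19 for Fbp1 and -0.090 for G6pc, where all samples gave 0.23, -0.11 and 0.065.

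**Figure D3:**
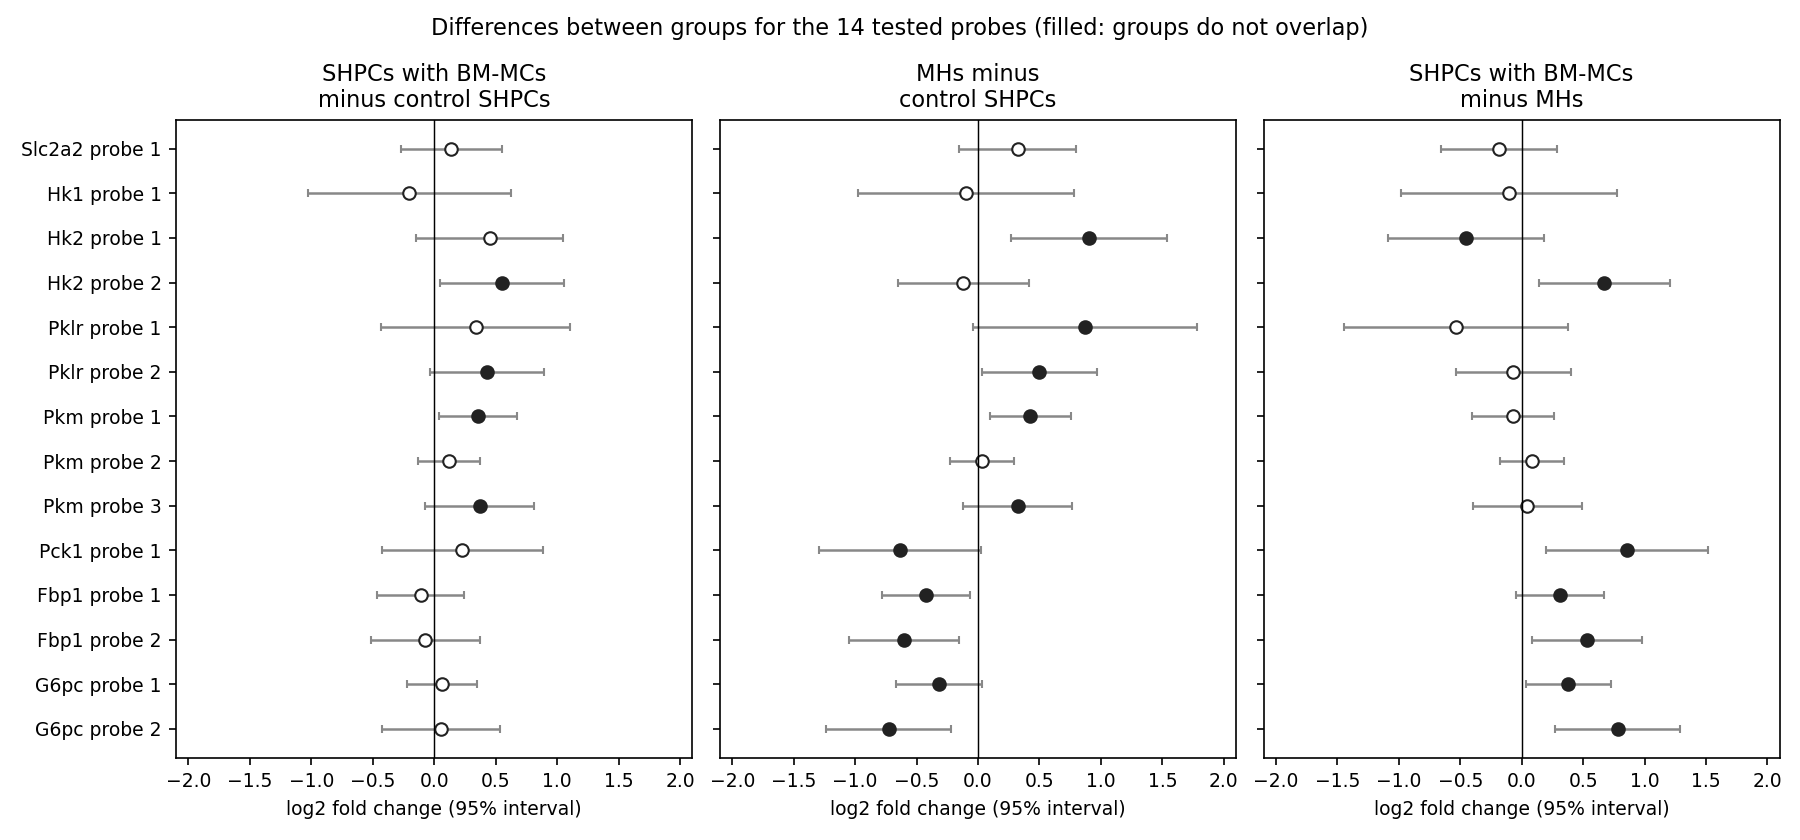
Log2 fold change with its 95% interval (horizontal axis) for the 14 tested probes, in 3 comparisons. Filled points mark probes whose groups do not overlap; in MHs against control SHPCs the 5 probes of Pck1, Fbp1 and G6pc lie below 0 and those of Pklr above 0, while probes of Hk2 and of Pkm differ among themselves.

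Samples of 1 group also differed from each other. Among the 8 genes, replicate 3 was the highest of both SHPC groups in 2 and the lowest of both in 3, where 18.2% and 16.2% of 14453 genes showed these orders. Pck1 and Fbp1 were the former, and Slc2a2, Hk2 and Pklr the latter. As a difference within each array, relative to the control mean, Pck1 minus Pklr was -0.37, -0.30 and 0.67 in control SHPCs, -0.995, -0.26 and 0.93 in SHPCs with BM-MCs and -1.09 and -1.92 in MHs. Both MHs were below every SHPC sample in this difference, and replicate 3 was highest in both SHPC groups.

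Scaling between arrays cancels in such differences, which otherwise restate the levels above. Of 6 pairs computed, that of both pyruvate kinases, Pklr minus Pkm, was at -0.071 and 0.96 in MHs, at 0.25, -0.085 and -0.17 in control SHPCs and at 0.64, -0.21 and -0.49 in SHPCs with BM-MCs, and all groups overlapped. Pck1 minus Pkm was -1.16 and -0.95 in MHs, -0.12, -0.39 and 0.51 in control SHPCs and -0.36, -0.46 and 0.44 in SHPCs with BM-MCs. Fbp1 minus Pkm was -0.94 and -0.76 in MHs, 0.10, -0.19 and 0.088 in control SHPCs and -0.71, -0.53 and -0.16 in SHPCs with BM-MCs. MHs were lowest in both of the latter, and the samples with BM-MCs lay between MHs and control SHPCs in Fbp1 minus Pkm, with BM-MC replicate 3 overlapping the controls.

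The wider pathway was read from a list of 52 glycolysis and gluconeogenesis genes, the 8 members included, of which 48 were tested, Slc2a4, Slc2a10 and Pgam2 were too dim and Hkdc1 matched no probe. Limma called 0 of the 48 in each of the 3 comparisons, where it called 0.0275%, 1.22% and 0.406% of all genes in SHPCs with BM-MCs against controls, MHs against controls and SHPCs with BM-MCs against MHs. An unadjusted p under 0.05 was found for 4, 11 and 4 of the 48 in this order, beside 16.2%, 20.3% and 13.5% of all genes. With BM-MCs 28 of 48 had a positive difference from control SHPCs, with a median of 0.060 against 0.025 over all genes, and the median of all probes moved from 0.018 to -0.17 when arrays were scaled to their median, so that signs here hold relative to the 75th percentile only. Between MHs and control SHPCs 20 of 48 were positive, with a median of -0.052 against 0.057.

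By step, the 8 gluconeogenesis genes had mostly negative differences between MHs and control SHPCs. One was positive and 7 were negative, with a median of -0.28, and in 6 the groups did not overlap, 1 higher and 5 lower in MHs, beside 25.4% and 16.8% of all genes. Pck1, Fbp1 and G6pc are among the 8. The positive one was Fbp2, the muscle isoenzyme, at -0.87 and -1.10 in MHs against -1.68, -1.64 and -1.64 in control SHPCs (difference 0.67, adjusted p = 0.15, limma). All 4 genes of the triose stage (Tpi1, Gapdh, Pgk1 and Pgam1) had negative differences with no overlap, beside 16.8% of all genes lower with no overlap. The 3 phosphofructokinases had positive differences, of which that of Pfkl was 0.013, and in Pfkp alone the groups did not overlap. Between SHPCs with BM-MCs and MHs 7 of the 8 gluconeogenesis genes had positive differences, with a median of 0.34 against -0.019 over all genes. In that comparison the median of all probes moved from 0.0030 to -0.195 when arrays were scaled to their median, and Pck1 fell to 0.11 once slide sets were blocked.

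**Figure D4:**
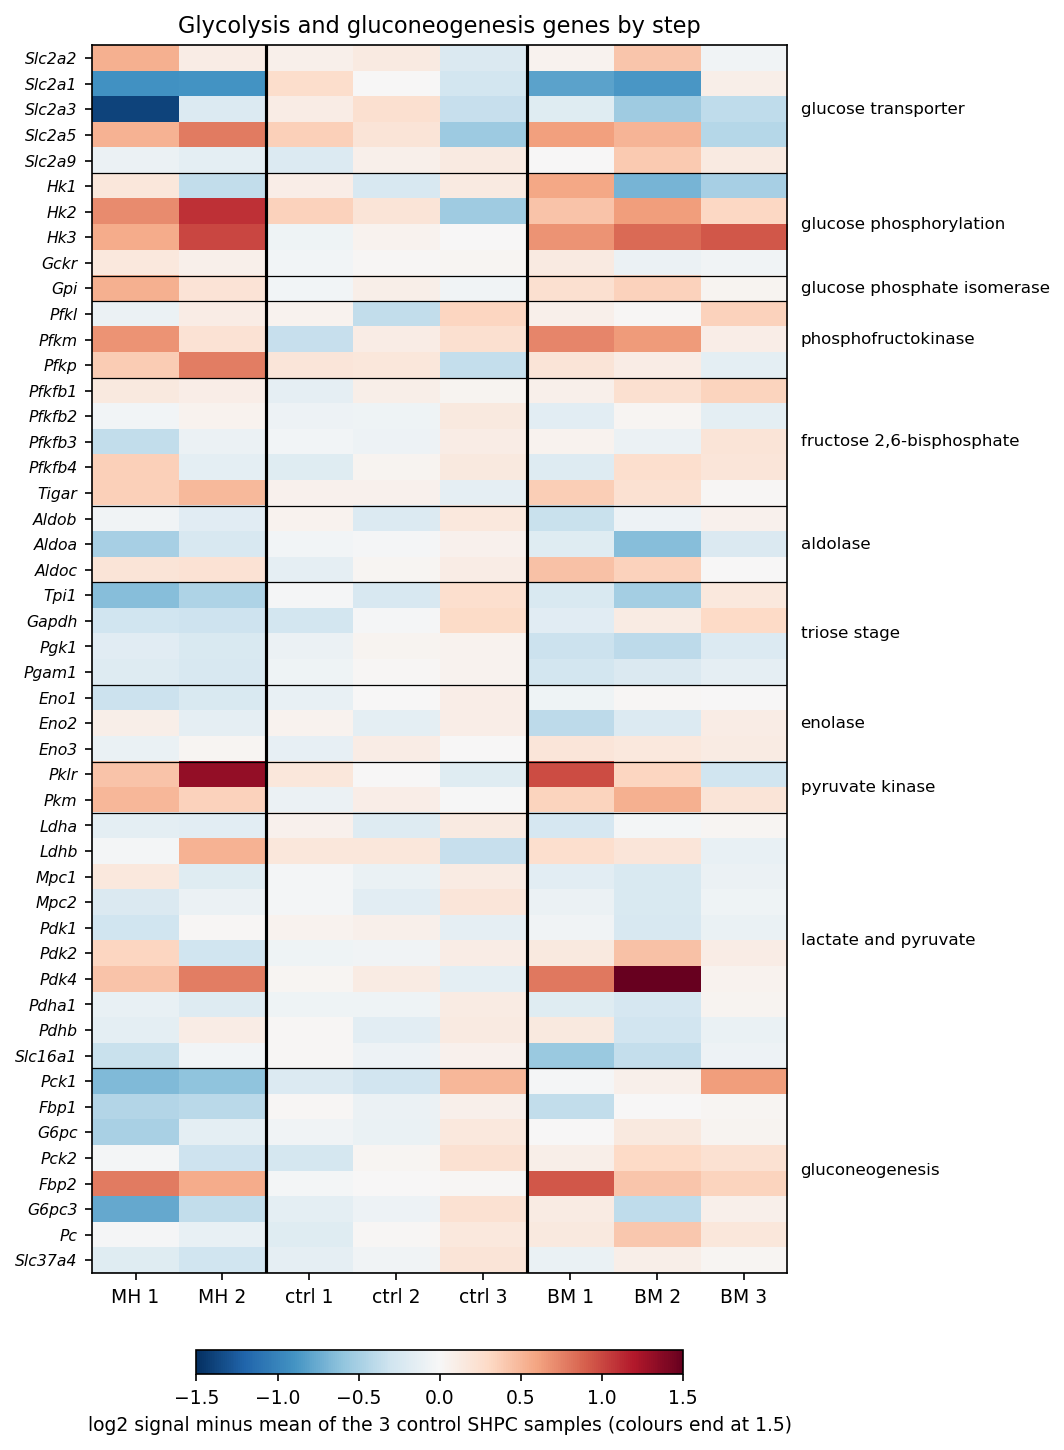
Log2 signal of 48 glycolysis and gluconeogenesis genes (rows, grouped by step) in each of the 8 samples (columns), as the difference from the mean of the 3 control SHPC samples. Red is higher and blue lower, with colours ending at 1.5; Pck1, Fbp1, G6pc and the triose-stage genes are blue in both MHs, and Hk3 is red in both MHs and in all samples with BM-MCs.

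Hk3, a hexokinase best known from blood cells, came closest to the threshold among the pathway genes. It was at -2.68 and -2.24 in MHs, at -3.31, -3.18 and -3.23 in control SHPCs and at -2.57, -2.38 and -2.31 in SHPCs with BM-MCs. Controls lay below every other sample. The difference was 0.78 for MHs (standard error 0.16, adjusted p = 0.082, limma) and 0.82 for SHPCs with BM-MCs (standard error 0.12, adjusted p = 0.093, limma).

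All 12 genes of a glycogen list and all 24 of a list of hormonal and transcriptional regulators were tested. Limma called 0 glycogen genes in every comparison, beside the 0.0275%, 1.22% and 0.406% of all genes given above. Pygb, a glycogen phosphorylase, differed by 0.54 between MHs and control SHPCs (adjusted p = 0.13). Ppp1r3b, which targets a phosphatase to glycogen and was well above background on 5 of 7 arrays with complete marks, differed by -0.78 between SHPCs with BM-MCs and controls and by -1.27 between SHPCs with BM-MCs and MHs (adjusted p = 0.12 and 0.083, limma). When normexp and quantile normalization were combined on the 7 arrays other than control SHPC replicate 2 these were -0.31 and -0.59, and with quantile normalization alone on all 8 they were -1.004 and -1.503. Against controls 2 of 20 alternative settings called it (adjusted p from 0.043 to 0.41, limma), and against MHs 0 of 22 did.

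One regulator of 24 was called, in SHPCs with BM-MCs against MHs, where 0.406% of all genes were. Sik1, a kinase that cAMP induces and that restrains the gluconeogenic coactivator CRTC2, was at 0.81 and 0.92 in MHs, at 1.18, 0.92 and 0.98 in control SHPCs and at 1.85, 2.17 and 2.23 in SHPCs with BM-MCs. It rose by 1.22 in SHPCs with BM-MCs over MHs (standard error 0.16, adjusted p = 0.032, limma) and differed by 1.06 from control SHPCs (adjusted p = 0.091), a difference that 2 of 21 alternative settings called (adjusted p from 0.038 to 0.35, limma). The call was kept in 7 of 23 alternative settings, where the difference ran from 1.02 to 1.34 and the adjusted p from 0.0077 to 0.48, and was lost when any 1 sample other than BM-MC replicate 1 was left out. The Sik1 call was also lost with median, quantile or no scaling and with replicate number as a block. No slide set held both MHs and SHPCs with BM-MCs. Irs2, a substrate of the insulin receptor, differed by 1.23 in the same comparison (adjusted p = 0.23, limma), and by 0.77 after blocking on slide set (adjusted p = 0.92, limma).

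Likeness of profile was measured for the 3 members with the widest range, as the root mean square difference over the 8 samples after each gene was centred. Among 14443 genes, Fabp7 (0.11), Fyb1 (0.12) and Slc7a8 (0.12) were closest to Hk2. Closest to Pklr were LOC102549198 (0.12), Kcnj2 (0.20) and Siglec5 (0.21), and closest to Pck1 were Lamb3 (0.097), Apon (0.14) and LOC103690241 (0.14). With 8 samples these are descriptions of the arrays at hand.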

How the data were processed

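RNA of 8 LMD samples was hybridised to 1-colour Agilent rat arrays. The values that the authors deposited are an intensity, the processed signal of Agilent Feature Extraction 10.7 after its background subtraction, not scaled between arrays. Per the file headers each spot also carries marks for background and outliers. For control SHPC replicate 2 the scanner output covers 20903 of 62976 features, and its intensity was read from the value table of the series instead. Its outlier marks were used where that output reaches, and its background marks were left out of the filter on probes. Signals were taken to log2 and each array was centred on its 75th percentile, without outlier spots and with 1 mean per probe. A probe had to be well above background on 3 or more of the 7 fully marked arrays, which 23111 did. Tests used limma 3.58.1 (R 4.3.3) with Benjamini-Hochberg adjustment at 0.05, on 6 samples for SHPCs with BM-MCs against control SHPCs and on all 8 in 1 fit for both comparisons with MHs. A gene stood for by several probes was represented by its brightest tested probe, and 95% intervals are limma's. The number of arrays limits the precision.

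Named genes were the 8 members, up to 3 genes of lowest p per comparison from the pathway, glycogen and regulator lists, markers, and the 3 closest profiles for the 3 members of widest range. Slc2a4, Slc2a10, Pgam2, Hkdc1, Pfkl, Pfkp, the triose-stage genes, Gbe1, Ppargc1a, Tat and Igfbp1 were named after their values were seen, and 1 gene of the pathway is not reported here. Members and lists were chosen with earlier results of these data known. Data were simulated from each probe's mean and residual spread (22969 probes), with independent normal noise and no slide-set effect. For SHPCs with BM-MCs against controls, MHs against controls and SHPCs with BM-MCs against MHs, 2-fold changes were recovered in 46%, 40% and 40%. The shares for 4-fold changes were 83%, 80% and 79%. Slide set and group are partly confounded in the arrays, so these shares do not give the power of the real comparisons. Alternatives changed scaling, background, filter, floor, outliers, probe choice, samples in the fit, limma's trend and array weights, the methods' t-test, blocks and single samples.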

Additional observations from a re-analysis of the deposited data

How the results depend on the processing

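Over 21 alternative settings for SHPCs with BM-MCs against control SHPCs and 23 for each comparison with MHs, limma called 0 of the 8 members in every comparison, and the methods' t-test after adjustment did too. The members' differences kept their direction in 158 of 167 values for SHPCs with BM-MCs against control SHPCs, in 182 of 183 between MHs and control SHPCs and in 172 of 183 for SHPCs with BM-MCs against MHs. Of the 48 pathway genes, 1 (Hk3) was called with array weights in each comparison with control SHPCs, and 0 otherwise. With each sample left out in turn, the counts of called members and pathway genes ran from 0 to 0.

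In SHPCs with BM-MCs against control SHPCs, Slc2a2 turned to -0.053 and G6pc to -0.13 with median scaling, Fbp1 to 0.015 with quantile normalization, Hk1 to 0.082 with the floor for dim spots, and Pck1 to -0.27 and G6pc to -0.090 with slide set as a block. Leaving out BM-MC replicate 1 turned Fbp1 to 0.018, and leaving out BM-MC replicate 2 turned Slc2a2 to -0.0012 and Hk1 to 0.042. Between MHs and control SHPCs, Hk1 turned to 0.17 without MH replicate 2. In SHPCs with BM-MCs against MHs, Hk1 turned to 0.18 with the floor, to 0.17 without MH replicate 1, to 0.14 without BM-MC replicate 2 and to 0.044 without BM-MC replicate 3. In that comparison Slc2a2 turned to 0.13 with slide set as a block and to 0.021 without MH replicate 1, Hk2 to 0.35 with slide set as a block and to 0.11 with the mean of its probes, and Pkm to 0.020 with the mean of its probes, to 0.0033 without MH replicate 1 and to 0.010 without BM-MC replicate 3. The cause was not tested. With samples left out in turn, the ranges were -0.0012 to 0.23 for Slc2a2, -0.60 to 0.042 for Hk1, -0.18 to 0.018 for Fbp1, 0.18 to 0.62 for Hk2, 0.015 to 0.65 for Pklr, 0.028 to 0.48 for Pck1 and 0.016 to 0.14 for G6pc in SHPCs with BM-MCs against controls, -0.37 to 0.17 for Hk1 and 0.12 to 0.53 for Slc2a2 in MHs against controls, and -0.39 to 0.021 for Slc2a2, -0.50 to 0.17 for Hk1, -0.65 to -0.26 for Hk2, -0.98 to -0.095 for Pklr and -0.16 to 0.010 for Pkm in SHPCs with BM-MCs against MHs.

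No label pairs samples by replicate number, and whether they were paired is not known. The deviations of samples with BM-MCs and controls of the same number correlated at 0.13, 0.078 and 0.17 across 22969 probes, and each sample with BM-MCs correlated best with its own number among the controls. With MH replicate 1, BM-MC replicates 1 and 2 correlated at -0.042 and 0.129. The deviations of both MHs from their mean mirror each other, so correlations with MH replicate 2 have the same size and the opposite sign by construction. With the replicate number as a block 0 members and 0 pathway genes were called, and the probes called went from 5 to 0, from 262 to 159 and from 78 to 0 in the order of comparisons above. For all probes, the count between SHPCs with BM-MCs and controls was 530 without control SHPC replicate 3, 326 with array weights and 213 with no scaling. Between MHs and controls it was 127 with normexp and quantile normalization on 7 arrays. Between SHPCs with BM-MCs and MHs it was 7 with quantile normalization. The shares of all genes called therefore hold for the main setting only. Hk1 and Hk2 probe 2 were limited by signal over background.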

Other observations

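Gbe1, the glycogen branching enzyme, was read by a single probe that stood at 3.30 in MH replicate 2 and between -4.19 and -3.36 in the other 7 samples, so that its difference of 3.46 between MHs and control SHPCs rested on 1 sample.

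Among the 24 regulators, replicate 3 was the highest of both SHPC groups for 7 genes and the lowest of both for 2, beside 18.2% and 16.2% of all genes. Ppargc1a, a coactivator of Pck1 and G6pc transcription, was at -4.25, -3.92 and -2.90 in control SHPCs and at -3.65, -3.79 and -2.17 in SHPCs with BM-MCs. Tat, a glucocorticoid-induced aminotransferase, was at 0.39, 0.25 and 0.93 and at 0.035, 0.32 and 1.15 in these groups. Igfbp1, which insulin represses, was instead lowest in both replicates 3, at 3.68, 3.65 and 2.78 and at 3.88, 3.92 and 2.80. These genes were chosen after their values were seen.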
